A study of Homo sapiens with 4 samples.

Results

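The kinetochore and spindle checkpoint were followed through 40 genes, a list by name of centromere, kinetochore and checkpoint components, in Kasumi-1 cells with and without knockdown of ANP32B. All 40 were found in the deposited expression table by gene symbol and reached at least 1 TPM, a unit that gives each gene its share of the sample per transcript length, in at least 2 of the 4 samples, out of 16817 genes that passed the same filter. Kasumi-1 is an established acute myeloid leukemia line that carries the RUNX1-RUNX1T1 fusion. RNA was sequenced from 2 samples labelled NC and 2 labelled sh-ANP32B, the latter carrying a lentiviral short hairpin RNA against ANP32B after puromycin selection. The labels give NC as untreated with no hairpin, while the methods of the study name a control hairpin, and which one these samples carried was not settled. The hairpin used among the 3 of the study is not given for either sh-ANP32B sample. The study says in general that its experiments were repeated independently at least 3 times. Whether the 2 sequenced samples of a group came from separate cultures is not stated. The p-values therefore rest on a spread between these samples that may be technical. They also rest on other genes, because the test drew the variance of each gene toward that of genes of like abundance.

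The kinetochore is the protein assembly that forms on each centromere in mitosis and holds the chromosome to spindle microtubules. Its inner layer, the constitutive centromere-associated network (CCAN), sits on nucleosomes with the histone variant CENP-A, and its outer layer, built from the KNL1, MIS12 and NDC80 complexes, binds the microtubule. Kinetochores without an attached microtubule recruit the BUB and MAD proteins of the spindle checkpoint, which hold back the anaphase-promoting complex until every chromosome is attached. Many of these genes are transcribed mainly from S phase to mitosis and are therefore low in cells that do not divide.

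Transcripts of this machinery were lower in sh-ANP32B almost throughout. The log2 fold change, sh-ANP32B over NC on the log2(TPM + 1) scale, was below 0 for 39 of the 40 genes and above 0 for MAD1L1 alone, with a median of -0.58 and a range from -1.19 to 0.31. The median over all 16817 genes was 0.08. Together the 40 genes summed to 2523 and 2635 TPM in NC replicates 1 and 2, and to 1876 and 1594 TPM in sh-ANP32B replicates 1 and 2. At an adjusted p under 0.05 in limma, 6 genes fell, namely CENPH, CENPW, CENPM, ZWINT, SKA2 and BUB1. None of the 40 rose at that threshold. Over all genes 1.18% were called lower and 2.14% higher. At an unadjusted p under 0.05, 29 of the 40 were lower and 0 higher, where 8.72% of all genes were lower and 15% higher. The criterion of the study, a log2 fold change under -0.5 at an unadjusted p under 0.05, was set there for DESeq2. Applied here to the limma values, it was met by 25 of the 40, against 6.55% of all genes. In 36 of the 40 both sh-ANP32B samples lay below both NC samples, which held for 21.4% of all genes. Because the list was put together with results of these samples known, no test was made of the list itself. In bulk RNA, fewer dividing cells and less of each transcript per cell cannot be told apart.

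The level of ANP32B itself matched the labels. It measured 383.8 and 392.0 TPM in NC against 51.8 and 41.2 TPM in sh-ANP32B, which left 11.99% of the NC mean (log2 fold change -3.04, SE 0.150, adjusted p = 0.00516). Throughout, paired values are given as replicate 1 and then replicate 2. The columns summed to between 997812 and 998314 TPM and held 15973 to 16540 genes at 1 TPM or more, and mitochondrial transcripts took 12.9% and 13.1% in NC and 11.4% and 8.43% in sh-ANP32B. TPM keeps no sequencing depth, so no counting interval was available for any gene. Of the Kasumi-1 markers, RUNX1T1 measured 17.6 and 15.6 TPM in NC against 31.2 and 26.8 TPM in sh-ANP32B. RUNX1 lay between 121 and 143 TPM and CD33 between 58.5 and 70.1 TPM, whereas KIT was low, at 1.55 to 3.41 TPM. CD38 measured 8.19 and 8.26 TPM in NC against 5.10 and 4.15 TPM in sh-ANP32B. CD34 and MPO were not analysed here.

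**Figure D1:**
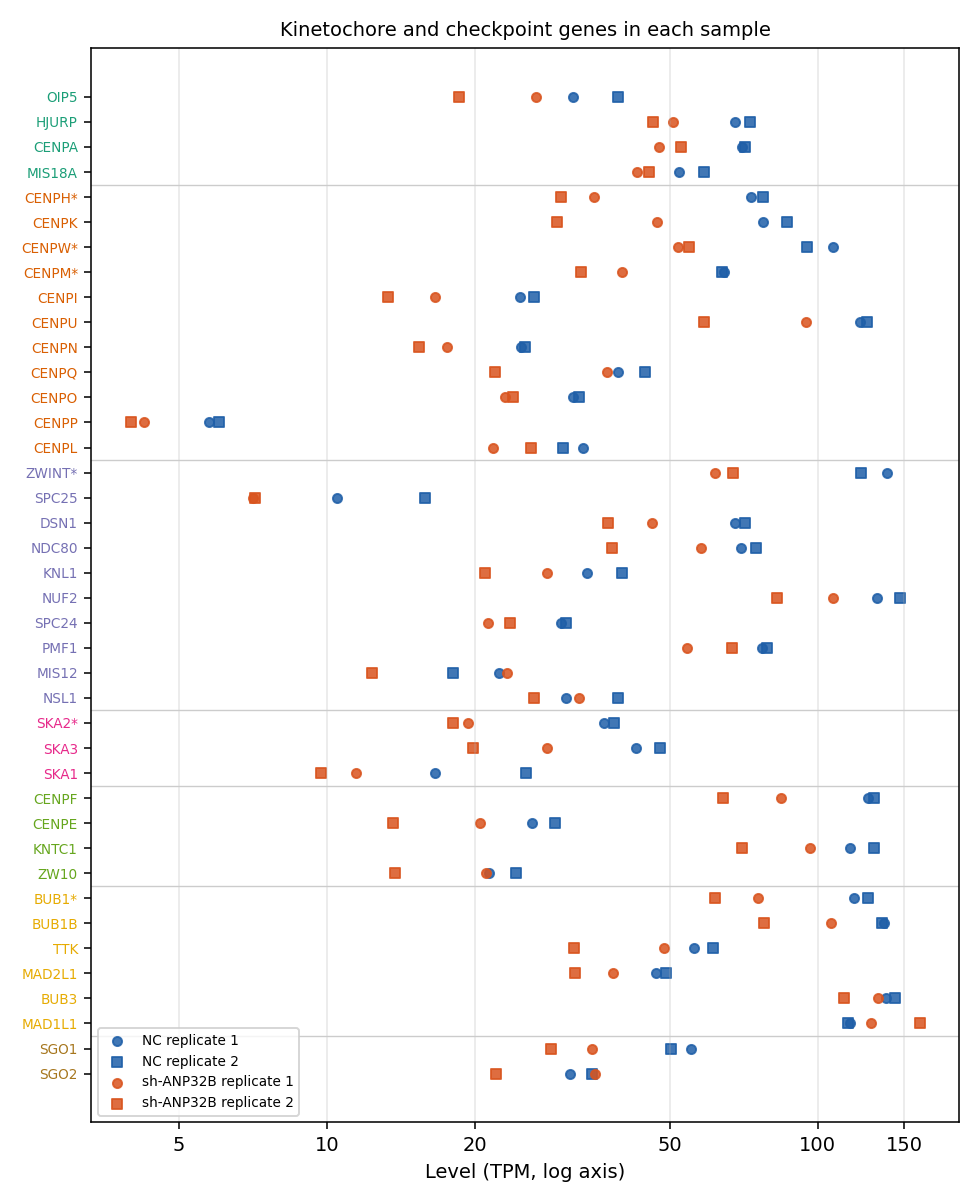
Level of each of the 40 genes in each sample, in TPM on a log axis, grouped by role. Blue marks NC and orange sh-ANP32B, circles are replicate 1 and squares replicate 2, and an asterisk marks the 6 genes with an adjusted p under 0.05; the orange points lie left of the blue ones in 36 genes and right of them in MAD1L1.

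Promoters were read for the genes on which the results turn, because shared sequence elements are what the list did not use. RefSeq promoter windows on GRCh38.p14, 250 bases before to 50 after the start, were matched for 32 of the 40 genes, among them 4 of the 6 that fell. The windows were searched on both strands for TTTGAA and TTCGAA, both forms of the cell cycle genes homology region (CHR) bound by the DREAM and B-MYB complexes, for CCAAT, the core bound by NF-Y, and for TTGGCGC or TTCGCGC, the core bound by E2F factors. CCAAT read on the other strand shares 4 letters with the start of TTGGCGC, so a single stretch can count for both. The 250 bases upstream of the start are printed 5′ to 3′ on the strand of the gene, with matches to any motif in capitals, first for the 4 genes that fell and then for MAD1L1, the one gene with a higher level, in which no match was found.
ZWINT, chr10:56361260-56361509, minus strand: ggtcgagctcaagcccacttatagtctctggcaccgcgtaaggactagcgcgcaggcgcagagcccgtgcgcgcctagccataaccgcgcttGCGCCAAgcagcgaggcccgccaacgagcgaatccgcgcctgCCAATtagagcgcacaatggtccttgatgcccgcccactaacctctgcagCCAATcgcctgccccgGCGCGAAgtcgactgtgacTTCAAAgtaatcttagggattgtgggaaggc
BUB1, chr2:110678064-110678313, minus strand: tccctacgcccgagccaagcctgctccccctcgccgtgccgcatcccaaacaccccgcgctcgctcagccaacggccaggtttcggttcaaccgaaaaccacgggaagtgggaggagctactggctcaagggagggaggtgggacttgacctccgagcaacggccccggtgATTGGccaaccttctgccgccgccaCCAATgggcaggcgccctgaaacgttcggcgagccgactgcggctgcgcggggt
SKA2, chr17:59155187-59155436, minus strand: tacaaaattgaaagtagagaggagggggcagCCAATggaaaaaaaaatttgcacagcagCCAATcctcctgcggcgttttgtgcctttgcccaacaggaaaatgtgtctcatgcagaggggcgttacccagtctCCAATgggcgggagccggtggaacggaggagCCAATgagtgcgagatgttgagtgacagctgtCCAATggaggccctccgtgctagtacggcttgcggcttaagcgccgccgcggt
CENPW, chr6:126339865-126340114, plus strand: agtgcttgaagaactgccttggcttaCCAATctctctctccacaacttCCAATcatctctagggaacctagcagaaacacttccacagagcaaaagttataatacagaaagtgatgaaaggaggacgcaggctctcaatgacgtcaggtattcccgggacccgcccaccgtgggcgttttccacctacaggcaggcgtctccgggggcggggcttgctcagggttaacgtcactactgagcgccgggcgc
MAD1L1, chr7:2232946-2233195, minus strand: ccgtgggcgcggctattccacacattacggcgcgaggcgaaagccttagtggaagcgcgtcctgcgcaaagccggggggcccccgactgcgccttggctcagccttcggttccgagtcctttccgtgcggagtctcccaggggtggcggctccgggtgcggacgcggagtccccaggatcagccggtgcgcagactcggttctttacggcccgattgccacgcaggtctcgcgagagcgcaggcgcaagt

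The ZWINT window held all 3 kinds of element upstream of the start, an E2F core at -158 and -50, CCAAT at -116 and -66, and the CHR form TTTGAA at -31, counted in bases from the RefSeq start. BUB1 and CENPW carried CCAAT upstream and the CHR form TTCGAA just downstream of the start, outside the stretch printed. SKA2 carried 5 copies of CCAAT and no CHR. A gene was counted if any of its windows held a match. A CHR of either form was found in 18 of the 32 genes (56.2%). The share was 15.4% of 9959 tested genes and 19.5% of all 27305 gene symbols with a window. CCAAT was found in 21 (65.6%), compared with 42.7% and 39.7%, and an E2F core in 8 (25.0%), compared with 10.4% and 6.10%. These are matches of letters and not sites of binding. Among the 32 genes, the median log2 fold change was -0.62 for the 18 with a CHR and -0.48 for the 14 without. The forms of the CHR differed in direction. The median was -0.58 for the 14 genes with TTTGAA and -0.67 for the 18 without. With TTCGAA it was -0.72 for 5 genes and without it -0.56 for 27. For those with and without CCAAT it was -0.58 and -0.61. It was -0.53 and -0.65 for the 8 with and the 24 without an E2F core. None of these differences was tested.

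CENP-A and the factors that load it were lower by moderate amounts, and none passed the adjusted threshold. CENPA, the centromeric histone H3 variant, measured 70.1 and 71.1 TPM in NC against 47.6 and 52.7 TPM in sh-ANP32B, giving a log2 fold change of -0.49 (adjusted p = 0.101). HJURP, its chaperone, was at 67.7 and 72.9 TPM against 50.6 and 46.2 TPM (-0.53, adjusted p = 0.0870). For both genes the groups were well apart, by more than the distance between replicates. OIP5, the MIS18 complex subunit also called MIS18B, had the lowest fold change of the 4 loading genes, -0.64 (SE 0.218, adjusted p = 0.145), from 31.7 and 39.1 TPM in NC against 26.7 and 18.6 TPM in sh-ANP32B. Its partner MIS18A had the highest, -0.32 (SE 0.144, adjusted p = 0.238), from 52.2 and 58.5 TPM and 42.8 and 45.4 TPM. In all 4 genes the sh-ANP32B samples lay below the NC samples, as in 21.4% of all genes. An unadjusted p under 0.05 was found in 3 (8.72% of all genes were lower at that p), and 2 met the criterion of the study, against 6.55%.

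The CCAN, the inner scaffold on CENP-A nucleosomes, held 3 of the 6 genes that fell. These were 3 of its 11 genes, against 1.18% of all genes called lower. All 11 CCAN genes had both sh-ANP32B samples below both NC samples, as did 21.4% of all genes. Of them 7 met the criterion of the study, against 6.55% of all genes, and the median log2 fold change was -0.73. CENPH, a subunit of the group around CENPI and CENPK that links the CCAN to the outer layer, had the largest change of the 40 genes. The gene (ENSG00000153044) spans chr5:69189574-69210357 on hg38. It measured 73.1 and 77.2 TPM in NC against 35.1 and 30.04 TPM in sh-ANP32B, a drop from 75.2 ± 2.92 to 32.6 ± 3.56 TPM (mean ± SD, n = 2), or 43.3% of NC, and its log2 fold change was -1.19 (SE 0.149, adjusted p = 0.0299). Both NC values lay far above both sh-ANP32B values, by much more than the distance between replicates. CENPK, its neighbour in the complex, was at 77.5 and 86.4 TPM in NC against 47.0 and 29.4 TPM in sh-ANP32B. Its mean was 46.6% of NC, but its sh-ANP32B replicates lay far apart and the adjusted p was 0.0543 (log2 fold change -1.12, SE 0.228). CENPI had 24.8 and 26.4 TPM against 16.6 and 13.3 TPM (-0.74, adjusted p = 0.0742).

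CENPW and CENPM were the other CCAN genes that fell. CENPW (ENSG00000203760, chr6:126340115-126348875), a histone-fold protein that pairs with CENP-T on DNA, measured 107.1 and 94.9 TPM in NC against 51.8 and 54.8 TPM in sh-ANP32B, or 101 ± 8.63 and 53.3 ± 2.10 TPM (log2 fold change -0.91, SE 0.139, adjusted p = 0.0362). CENPM (ENSG00000100162, chr22:41938737-41947152), which binds CENPI, measured 64.4 and 63.9 TPM against 39.9 and 32.9 TPM, or 64.1 ± 0.333 and 36.4 ± 4.98 TPM (-0.81, SE 0.155, adjusted p = 0.0482). CENPM had the highest adjusted p of the 6, just inside the threshold. Of the remaining CCAN genes, CENPU was the most abundant, with 121.9 and 126.1 TPM in NC against 94.6 and 58.7 TPM in sh-ANP32B (-0.73, adjusted p = 0.120). CENPP was the least abundant, with 5.75 and 6.02 TPM against 4.24 and 3.99 TPM (-0.43, adjusted p = 0.304). CENPL had the highest fold change of the group, -0.40 (SE 0.168, adjusted p = 0.212), from 33.3 and 30.3 TPM and 21.8 and 26.1 TPM. OIP5, described above, overlaps NUSAP1 on the opposite strand (-0.63, adjusted p = 0.0597). In all, 16 of the 40 genes overlap another tested gene, 14 of them on the opposite strand, and whether reads were assigned by strand is not stated. CENPN, CENPO and CENPQ lay between -0.58 and -0.44 and did not pass the test.

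**Figure D2:**
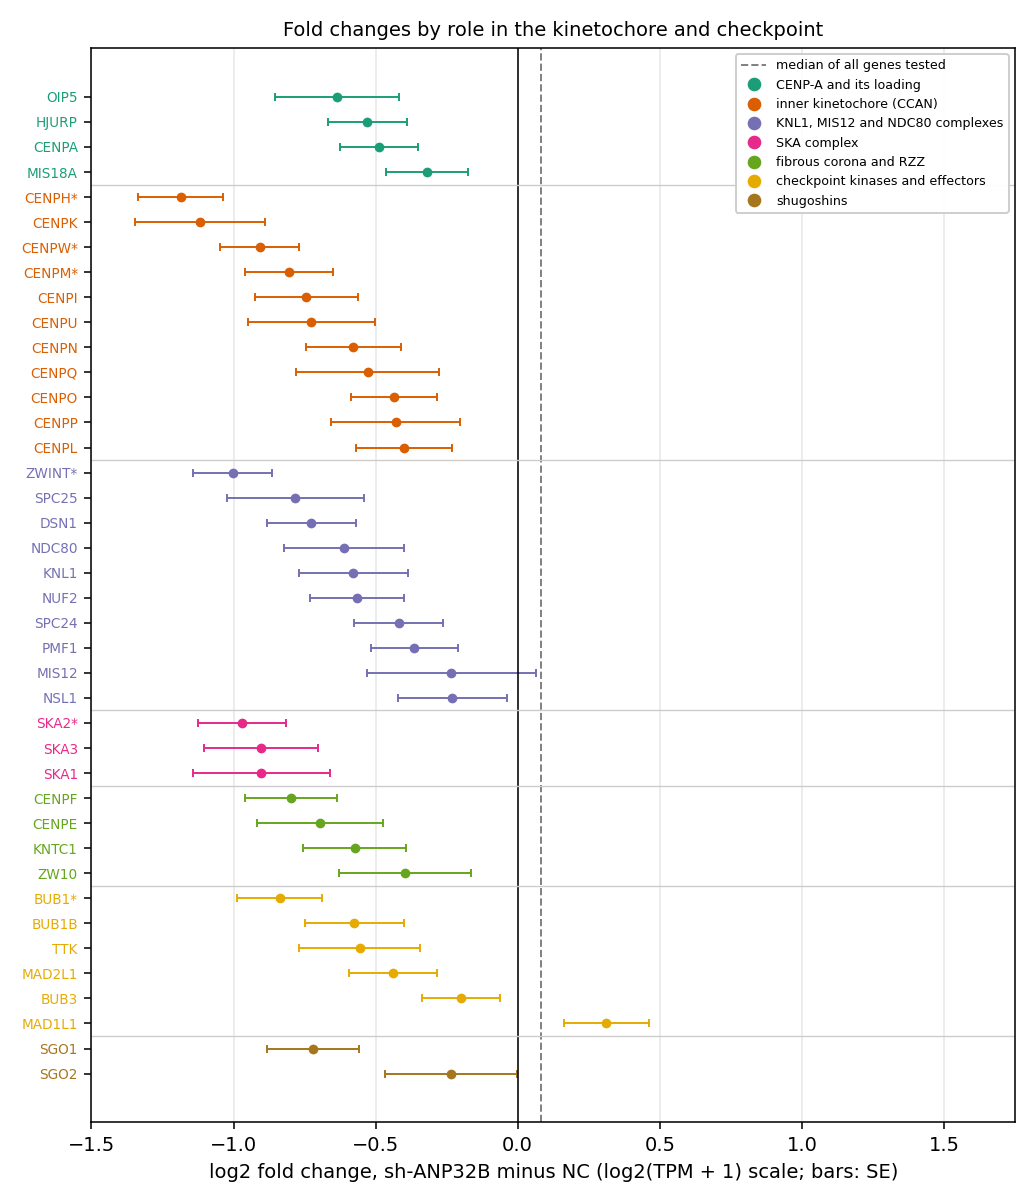
Log2 fold change of each of the 40 genes, sh-ANP32B over NC on the log2(TPM + 1) scale, with bars of 1 standard error, coloured by role. The dashed line is the median of all 16817 genes, 0.08, and 39 of the 40 points lie below 0, from -1.19 for CENPH to 0.31 for MAD1L1.

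The outer layer, in which KNL1 serves as the checkpoint platform, the MIS12 complex as the bridge to the CCAN and the NDC80 complex as the microtubule binder, was also lower. Of its 10 genes, 1 fell at the adjusted threshold, against 1.18% of all genes, and 6 met the criterion of the study, against 6.55%. Groups did not overlap in 8, with sh-ANP32B the lower, as in 21.4% of all genes. The median log2 fold change was -0.57. ZWINT (ENSG00000122952, chr10:56357227-56361273), the partner of KNL1 that helps to recruit the RZZ complex, was the gene that fell. It measured 138.6 and 122.5 TPM in NC against 61.8 and 67.3 TPM in sh-ANP32B, or 131 ± 11.4 and 64.6 ± 3.92 TPM, and its log2 fold change was -1.003 (SE 0.138, adjusted p = 0.0323). KNL1 was at 33.9 and 39.9 TPM against 28.03 and 21.0 TPM (-0.58, adjusted p = 0.139). Both were lower, but the ratio of ZWINT to KNL1 was 4.09 and 3.07 in NC and 2.20 and 3.20 in sh-ANP32B, so the ratios of the 2 groups overlapped.

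Within the MIS12 complex the subunits had unlike values. DSN1 measured 67.8 and 71.0 TPM in NC against 46.1 and 37.4 TPM in sh-ANP32B (-0.73, SE 0.157, adjusted p = 0.0589). MIS12 measured 22.5 and 18.1 TPM against 23.2 and 12.4 TPM (-0.23, SE 0.296, adjusted p = 0.688). For MIS12 the groups overlapped, with the highest and the lowest value both in sh-ANP32B. NSL1, the gene of the outer layer with the highest fold change, had 30.7 and 39.3 TPM against 32.7 and 26.5 TPM (-0.23, SE 0.192, adjusted p = 0.515) and also overlapped. PMF1 had 76.8 and 78.7 TPM against 54.1 and 67.0 TPM (-0.36, adjusted p = 0.215), and overlaps the readthrough gene PMF1-BGLAP on the same strand, so the division of reads between the pair is uncertain.

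The NDC80 complex was lower in all 4 subunits, with log2 fold changes of -0.78 for SPC25, -0.61 for NDC80, -0.56 for NUF2 and -0.42 for SPC24, and none passed the adjusted threshold. NUF2 was the most abundant of the 4, at 132.2 and 147.2 TPM in NC against 107.2 and 82.4 TPM in sh-ANP32B. NDC80 had 69.8 and 74.9 TPM against 57.9 and 38.1 TPM. The ratio of NDC80 to NUF2, which form a dimer in the complex, was 0.528 and 0.509 in NC and 0.540 and 0.462 in sh-ANP32B, so the ratios of the groups overlapped. SPC25 had 10.5 and 15.9 TPM against 7.06 and 7.14 TPM, so its NC replicates lay far apart while its sh-ANP32B replicates were nearly equal. SPC24 had 30.0 and 30.6 TPM against 21.3 and 23.6 TPM, with groups that did not overlap.

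The SKA complex, which helps NDC80 to follow shortening microtubules, had the lowest median of the role groups, -0.90 over 3 genes. SKA2 (ENSG00000182628, chr17:59109857-59155260) fell from 36.7 and 38.5 TPM to 19.4 and 18.0 TPM, or from 37.6 ± 1.30 to 18.7 ± 0.946 TPM, and its log2 fold change was -0.97 (SE 0.154, adjusted p = 0.0392). An antisense gene overlaps SKA2, at 3.5 TPM or less in every sample and with a higher level in sh-ANP32B (1.12, adjusted p = 0.114). SKA3 had 42.6 and 47.7 TPM against 28.03 and 19.9 TPM (-0.90, SE 0.200, adjusted p = 0.0608). SKA1 had 16.6 and 25.5 TPM against 11.4 and 9.74 TPM (-0.90, SE 0.241, adjusted p = 0.0898). SKA1 and SKA3 had nearly the same fold change as SKA2 with a wider spread between replicates. All 3 genes met the criterion of the study, against 6.55% of all genes.

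The fibrous corona is the outermost layer of an unattached kinetochore, where CENP-E and CENP-F act and the RZZ complex, of which ZW10 and KNTC1 (ROD) are subunits, brings in the MAD proteins. All 4 corona genes had groups that did not overlap, with sh-ANP32B the lower, as in 21.4% of all genes. Of the 4, 3 met the criterion of the study, against 6.55% of all genes, and 0 passed the adjusted threshold. CENPF, a large coiled-coil protein, came closest, with 126.8 and 130.1 TPM in NC against 84.0 and 64.2 TPM in sh-ANP32B (-0.80, SE 0.163, adjusted p = 0.0543). CENPE, the plus-end kinesin that moves chromosomes to the spindle equator, had 26.2 and 29.2 TPM against 20.5 and 13.6 TPM (-0.69, adjusted p = 0.127). KNTC1 had 116.3 and 130.0 TPM against 96.4 and 70.2 TPM (-0.57, adjusted p = 0.124). ZW10 had 21.4 and 24.3 TPM against 21.1 and 13.8 TPM (-0.40, SE 0.231, adjusted p = 0.351). In all 4 genes the lower of the sh-ANP32B values was in replicate 2, and for ZW10 replicate 1 was nearly at the level of NC.

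The checkpoint genes held the widest range, from -0.84 for BUB1 to 0.31 for MAD1L1, with a median log2 fold change of -0.50. BUB1 (ENSG00000169679, chr2:110637528-110678063), the kinase that marks the inner centromere and starts checkpoint assembly on KNL1, measured 118.6 and 126.8 TPM in NC against 75.4 and 61.6 TPM in sh-ANP32B. Its mean fell from 123 ± 5.77 to 68.5 ± 9.73 TPM (-0.84, SE 0.150, adjusted p = 0.0440). BUB3, the adaptor that carries BUB1 to the kinetochore, measured 137.9 and 144.0 TPM against 132.5 and 113.2 TPM (-0.20, adjusted p = 0.425). BUB1 and BUB3 were thus at like levels in NC and apart in sh-ANP32B, with a ratio of 0.860 and 0.881 in NC and of 0.569 and 0.544 in sh-ANP32B. BUB1B, which encodes BUBR1 of the mitotic checkpoint complex, had 136.7 and 135.2 TPM against 106.3 and 77.7 TPM (-0.58, adjusted p = 0.115). TTK, the kinase MPS1 at the head of the pathway, had 55.8 and 61.1 TPM against 48.5 and 31.9 TPM (-0.56, adjusted p = 0.183).

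MAD1L1 and MAD2L1, whose proteins form the template for the mitotic checkpoint complex, had log2 fold changes of opposite sign, and neither passed the adjusted threshold. MAD1L1 (ENSG00000002822, chr7:1815793-2233243) measured 116.1 and 115.2 TPM in NC against 128.3 and 161.2 TPM in sh-ANP32B, or 125% of NC (0.31, SE 0.151, adjusted p = 0.267). MAD2L1 measured 46.8 and 49.0 TPM against 38.3 and 32.1 TPM (-0.44, SE 0.156, adjusted p = 0.156). The groups were apart in both genes. Both sh-ANP32B samples lay above both NC samples, as in MAD1L1, in 5579 of all 16817 genes. The ratio of MAD2L1 to MAD1L1 was 0.403 and 0.425 in NC and 0.298 and 0.199 in sh-ANP32B. MAD1L1 had the highest GC content of the 40 genes, 62.6% over its longest transcript, and its log2 fold change with GC correction, described below, was 0.17 (adjusted p = 0.175). Of the shugoshins, which shield centromeric cohesin, SGO1 had 55.1 and 50.2 TPM against 34.7 and 28.7 TPM (-0.72, SE 0.161, adjusted p = 0.0624). SGO2 had 31.3 and 34.7 TPM against 35.1 and 22.1 TPM (-0.24, SE 0.233, adjusted p = 0.596). SGO2 overlapped between groups, with its sh-ANP32B replicate 1 above both NC values.

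Ratios of genes within a sample do not depend on how the sample was scaled, but they were not corrected for GC content, described below. CENPH was 2.31 and 2.37 times CENPO in NC, both measured per length, and 1.52 and 1.25 times in sh-ANP32B. CENPW was 1.40 and 1.33 times CENPT, its partner in the histone-fold pair, in NC and 0.609 and 0.548 times in sh-ANP32B. GC content was 39.2% for CENPW and 59.0% for CENPT, and with GC correction their log2 fold changes were -0.83 and 0.21. The ratio of BUB1 to BUB1B was 0.868 and 0.937 in NC and 0.709 and 0.793 in sh-ANP32B. In these ratios the groups were apart. They overlapped for SKA1 to SKA3, at 0.391 and 0.534 against 0.408 and 0.490, and for DSN1 to MIS12, at 3.02 and 3.92 against 1.98 and 3.02. The ratio of SGO1 to SGO2 was 1.76 and 1.45 in NC and 0.986 and 1.30 in sh-ANP32B, and that of SPC25 to SPC24 was 0.350 and 0.518 against 0.332 and 0.303, with groups apart in both but a wide spread within them. No test was made of any ratio.

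A list of 8 of the 40 genes was set aside as varying little over the cell cycle by general knowledge, namely BUB3, MAD1L1, ZW10, MIS12, NSL1, PMF1, SKA2 and CENPP. Their median log2 fold change was -0.30 and SKA2 alone fell, while the other 32 genes had a median of -0.62 and 5 that fell. Of the 8, 7 were below 0, as were 7076 of all 16817 genes. In 5 of the 8 both sh-ANP32B samples lay below both NC samples, as in 21.4% of all genes. Like the other lists, this one was chosen with earlier results of these data known, so the contrast of medians only describes the choice made. The summed level of the 8 was 448 and 464 TPM in NC against 416 and 416 TPM in sh-ANP32B. That of the other 32 was 2075 and 2171 TPM against 1460 and 1178 TPM. Markers of dividing cells were lower as well: all 12 on the list had groups that did not overlap, with a median of -0.69. Groups were apart in that direction in 21.4% of all genes. Of the 12, MKI67, PCNA, TYMS and MCM2 fell, as did 1.18% of all genes. MKI67 measured 144.4 and 150.7 TPM in NC against 84.0 and 74.0 TPM (-0.90, adjusted p = 0.0354), and PCNA, the sliding clamp of replication, 311.9 and 301.9 TPM against 161.9 and 154.1 TPM (-0.95, adjusted p = 0.0299). TYMS, which makes thymidylate, had 249.6 and 259.0 TPM against 123.2 and 154.9 TPM (-0.88, adjusted p = 0.0431), and MCM2, a subunit of the replicative helicase, 208.3 and 194.9 TPM against 96.4 and 112.0 TPM (-0.95, adjusted p = 0.0348). In these 4 genes both sh-ANP32B values lay far below both NC values. The sum of the 12 was 2522 and 2612 TPM in NC against 1652 and 1474 TPM in sh-ANP32B. The sum of the 40 kinetochore and checkpoint genes over that of the 12 markers was 1.00 and 1.01 in NC and 1.14 and 1.08 in sh-ANP32B. What part a lower share of dividing cells had in the values of the 40 genes was not tested.

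The rest of the pathway was read from 4 further lists with 54 genes tested and a median log2 fold change of -0.36. Of the 54, 2 fell, against 1.18% of all genes, and 14 were lower by the criterion of the study, against 6.55%. None rose at the adjusted threshold, and 4 of the 54 were higher at an unadjusted p under 0.05, a smaller share than the 15% of all genes. The chromosomal passenger complex and mitotic kinases, which correct wrong attachments, were the most alike, from -0.69 for INCENP to -0.37 for BIRC5 (survivin). All 7 tested had groups that did not overlap, with sh-ANP32B the lower, as in 21.4% of all genes. All 7 were lower at an unadjusted p under 0.05, where 8.72% of all genes were, but none passed the adjusted threshold. INCENP measured 152 and 147 TPM in NC against 81.2 and 105 TPM in sh-ANP32B (adjusted p = 0.0673), and BIRC5 53.7 and 51.8 TPM against 38.5 and 42.6 TPM (adjusted p = 0.182). Of 9 further genes listed as inner kinetochore and centromere, 0 passed. At the same unadjusted p 3 were lower, namely CENPS, ITGB3BP and CENPJ, the last of them a centriole protein. The lowest of the 9 was ITGB3BP (CENP-R), -0.86, at 120.6 and 152.4 TPM against 87.9 and 62.8 TPM (adjusted p = 0.0703). The highest was CENPT, 0.31, at 76.4 and 71.6 TPM against 84.99 and 99.96 TPM (adjusted p = 0.246).

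Of 13 further outer kinetochore and corona genes tested, KNSTRN, a spindle and kinetochore protein also called SKAP, fell from 77.0 and 78.3 TPM to 44.8 and 47.3 TPM (-0.74, SE 0.133, adjusted p = 0.0440). The lowest of this list was SPDL1 (Spindly), the dynein adaptor of the corona, with 58.2 and 58.5 TPM against 40.5 and 26.6 TPM (-0.81, adjusted p = 0.0844). The highest was CLIP1, a microtubule plus-end protein, with 19.0 and 17.1 TPM against 27.6 and 23.9 TPM (0.49, adjusted p = 0.153). The anaphase-promoting complex, its activators and the factors that silence the checkpoint had a median nearer to 0, -0.17 over 25 genes. Within that list ESPL1 (separase), the protease that cuts cohesin, fell from 73.1 and 74.4 TPM to 40.8 and 46.8 TPM (-0.74, SE 0.143, adjusted p = 0.0482). TRIP13, the ATPase that takes the checkpoint complex apart, was the lowest, with 53.8 and 56.8 TPM against 36.0 and 28.2 TPM (-0.78, adjusted p = 0.0589). ANAPC2, a core subunit of the ligase, was the highest, with 70.8 and 72.8 TPM against 91.7 and 109.7 TPM (0.48, adjusted p = 0.116).

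**Figure D3:**
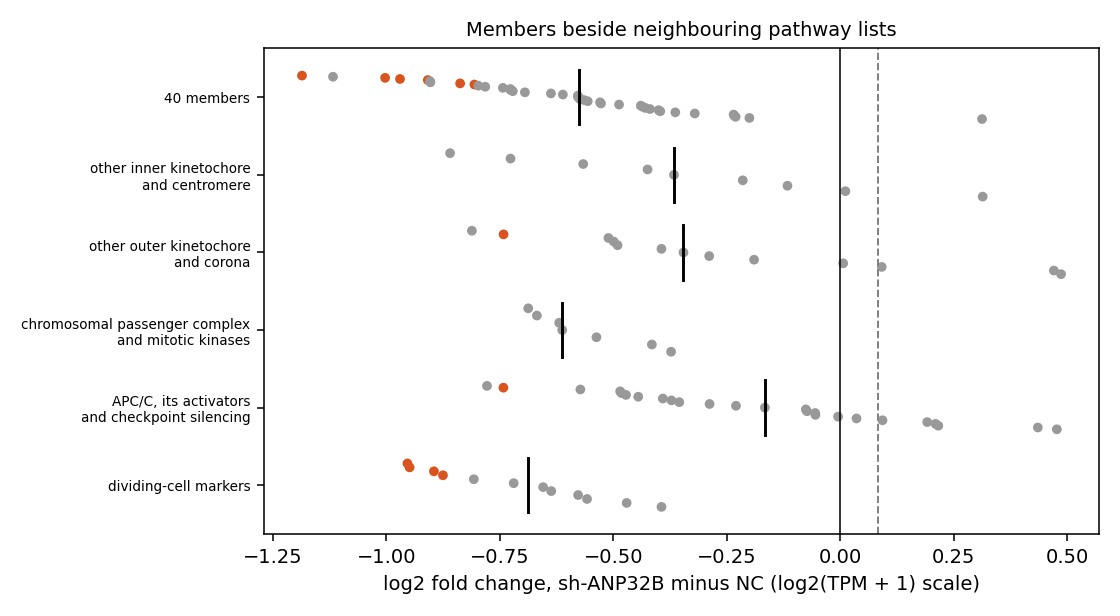
Log2 fold change of every tested gene in the 40-gene list, in the 4 further pathway lists and in the dividing-cell markers, sh-ANP32B over NC on the log2(TPM + 1) scale. Orange points passed the adjusted threshold, the bar is the median of the list and the dashed line that of all genes; the medians run from -0.69 for the dividing-cell markers to -0.17 for the anaphase-promoting complex.

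The sh-ANP32B replicates did not carry equal weight. In 30 of the 40 genes (75.0%) replicate 2 was below replicate 1, compared with 52.4% of all genes, and the median difference, replicate 2 minus replicate 1 in log2(TPM + 1), was -0.28 for the 40 genes and -0.03 for all genes. Between the NC replicates the median difference of the 40 genes was 0.07. The difference followed base composition. Kinetochore and checkpoint transcripts had a median GC content of 41.1% over the longest transcript, from 32.8% in CENPK to 62.6% in MAD1L1, against 48.1% over all genes with a value. Across the 40 genes, GC content and the sh-ANP32B replicate difference were related with a Pearson r of 0.630 (Spearman rho 0.652), and across 15427 genes the rho was 0.577. Both are across genes that share the same pair of libraries, and genes are not independent replicates. Between the NC replicates the rho across all genes was -0.206. GC content and the log2 fold change of the 40 genes were less related, with a rho of 0.246.

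**Figure D4:**
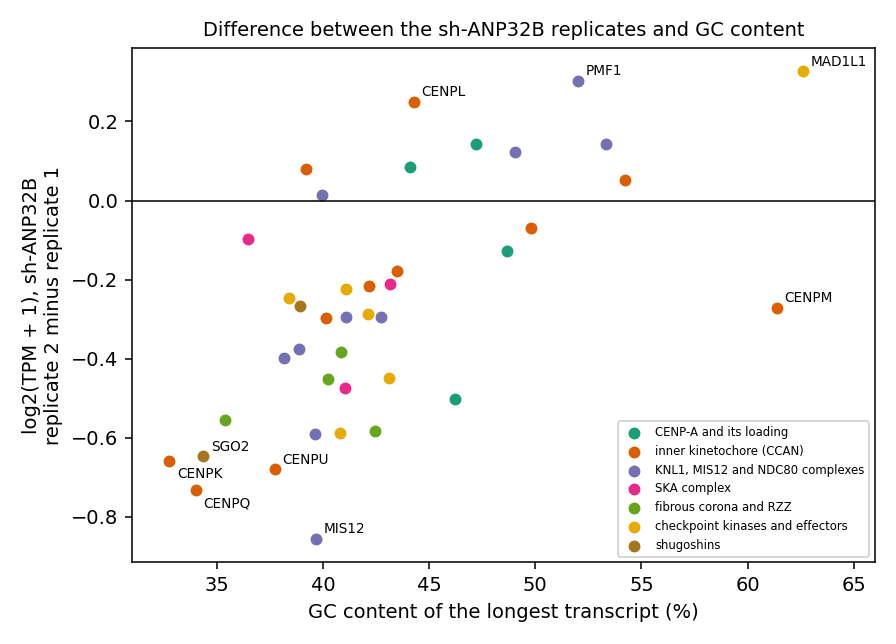
GC content of the longest transcript of each of the 40 genes, in percent, against the difference between the sh-ANP32B replicates, replicate 2 minus replicate 1 in log2(TPM + 1). Genes of low GC content such as CENPK (32.8%) and CENPQ (34.0%) lie below 0 and MAD1L1 (62.6%) lies above, and 30 of the 40 points are below 0.

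When the GC trend of each sample was removed by a loess fit, the median of the 40 genes was -0.51 and 26 of them were called lower, where the background was 6.6% of 15427 genes. The 26 were the 6 named above and 20 more. Leaving out a sh-ANP32B sample also raised the counts. Without replicate 1, 31 were called lower against a background of 9.68%, and without replicate 2, 24 were called lower against 8.47%. In each of these fits the variance came from the NC pair and the abundance trend. The spread between the sh-ANP32B replicates did not enter it. Without replicate 2 the log2 fold changes of MIS12 and SGO2 were 0.20 and 0.09, and 37 of the 40 genes were below 0. MAD1L1 stayed above 0 in every setting tried, from 0.15 to 0.48, and was called higher only without sh-ANP32B replicate 1 (adjusted p = 0.00612). CENPH was called in 12 of 13 alternatives, ZWINT in 11, BUB1, CENPW and SKA2 in 10 and CENPM in 9. Without the abundance trend in the variance, 0 of the 40 were called and 23 met the criterion of the study, and without NC replicate 1 or NC replicate 2 the number called was 2.

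**Figure D5:**
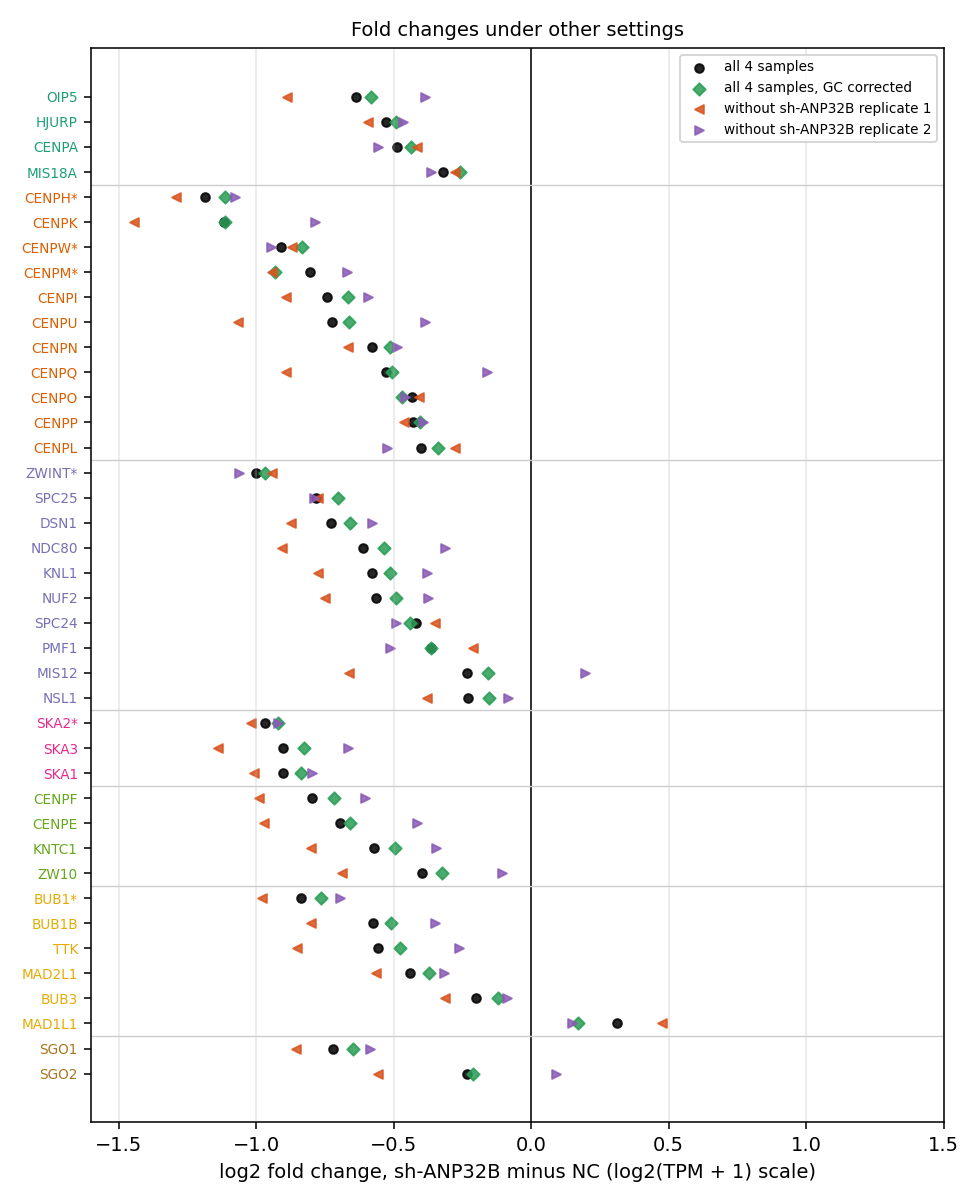
Log2 fold change of each of the 40 genes with all 4 samples, with GC correction, without sh-ANP32B replicate 1 and without sh-ANP32B replicate 2. Points of one gene share a row; MAD1L1 stays right of 0 in all of them, MIS12 and SGO2 cross 0 only without sh-ANP32B replicate 2, and CENPH lies at or near the left end throughout.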

How the data were processed

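RNA from 2 NC and 2 sh-ANP32B samples was sequenced and aligned by the authors with HISAT2 2.0.5 to hg38, per the submitters' processing notes, and their differential test was DESeq2. The deposited values are TPM, a share of a sample per transcript length, identified from the column sums. The program that made them, its annotation and strand setting were not given in the sources used here. As TPM is not a count, the count test was not run, and the alternative provided for normalised values was used. Of 18567 gene IDs, 16986 had a symbol in GENCODE v44, from which positions and the GC content of the longest transcript were taken.

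Genes that reached 1 TPM in 2 or more samples were compared on log2(TPM + 1) by limma 3.58.1 in R 4.3.3 with an abundance trend, two-sided, with Benjamini-Hochberg adjustment over 16817 genes. The scale understates changes of low genes. GC content was corrected by a loess fit in each sample (span 0.3). Python 3.11.15 with pandas 2.3.3, numpy 2.4.6 and matplotlib 3.10.9 made summaries and figures. Values per sample are given for ANP32B, for genes past the adjusted threshold and for the lowest and highest log2 fold change in each role group or pathway list. Further genes of the 40 were given values after these had been seen, to complete each complex, and the ratios of genes were likewise chosen afterwards. Values per sample of RUNX1T1 and CD38 were also added afterwards. The 40 genes and all lists were chosen with earlier results of these data known. Promoters came from RefSeq (GRCh38.p14).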

Additional observations from a re-analysis of the deposited data

How the results depend on the processing

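The count of 6 genes called lower differed between settings. It was 10 when 1 TPM was required in every sample, 26 after GC correction, 14 under the replicate block, 21 under the replicate block joined to GC correction, and 0 without the abundance trend, where ANP32B was not called either (log2 fold change -3.04, adjusted p = 0.0929). It was 9 with median-of-ratios scaling, 5 with a pseudocount of 0.1, and 6 with no filter or with mitochondrial genes left out. Over all genes the share called lower moved as well, from 1.18% with the main settings to 6.6% after GC correction. That share was not worked out for the other settings named so far, nor for the fits without an NC replicate. Those counts therefore stand without a background. Leaving out each replicate gave 2 to 31 called genes, with the lone sample of a group assumed to vary like the others. By the criterion of the study, 25 genes were lower with all samples and 12 to 30 with each replicate left out. The median of the 40 genes ranged from -0.80 to -0.46 with each replicate left out, and from -0.67 to -0.51 under the other alternatives. MIS12 and SGO2 had the opposite sign without sh-ANP32B replicate 2 (0.195 and 0.0889), and were -0.66 and -0.56 without sh-ANP32B replicate 1. The cause of these differences was not tested. The groups share replicate numbers, but no source says that a number marks a shared culture or run. Deviations from the group mean correlated at a Pearson r of -0.0925 between samples of one number, and with 2 pairs the numbers are taken as names only. The block left limma with 1 residual degree of freedom and an infinite prior. Tests on counts by edgeR and DESeq2 were not run, as the values are TPM.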
